A study of Mus musculus with 2 samples.

Results

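Genes of secreted seminal vesicle proteins, namely Svs1, Svs2, Svs3a, Svs3b, Svs4, Svs5, Svs6, Sva, Pate4 and Spinkl, are described here as they were measured in mouse epididymal fat. They are 10 of 19505 gene symbols and 10 of 22206 probe sets on the array, each with 1 probe set. They were chosen by name after their signals in this comparison had been seen, because all were high in 1 of the 2 RNA pools, so their differences are given as a description with no test. Each pool held the epididymal fat RNA of 3 male mice, which ate high-fat pellets from 6 to 18 weeks of age, a period of 12 weeks, and were killed after a 4 h fast. WT_A12 is the pool of A/J-12SM mice, a consomic strain that carries chromosome 12 of SM/J in the A/J background. KO_A12 is the pool of homozygous Iah1-KO mice made on the same strain with CRISPR/Cas9, in which a germline frameshift deletion in Iah1 is carried by all tissues. The KO line was bred from homozygous parents, so its mice and the A/J-12SM controls were not littermates, and all mice of both pools share the SM/J chromosome 12. Iah1 encodes an esterase of the isoamyl acetate hydrolase family. Each pool was labelled from 100 ng of total RNA and hybridized to 1 Clariom S Mouse Array, which gives 1 signal per probe set on the log2 scale. Pooling merged the 3 mice into 1 value, so no spread between mice or arrays could be computed, and a difference of genotype and a difference of 1 pool cannot be told apart. In bulk fat, fewer cells of a type and less RNA per cell cannot be told apart either.

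The seminal vesicles are paired androgen-dependent glands of the male mouse that lie close to the epididymal fat pad, and their epithelium secretes most of the volume of semen. The proteins Svs1 to Svs6 are major components of this secretion. Svs2 and its relatives evolve fast and are cross-linked after ejaculation by the transglutaminase Tgm4 of the coagulating gland, which forms the copulatory plug. Sva, Pate4 and Spinkl are smaller secreted proteins of the same fluid that bind to sperm or, like Spinkl, resemble protease inhibitors of the Kazal type.

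Svs2, Svs3b, Svs4, Svs3a, Svs6 and Svs5 follow each other in this order on chromosome 2, with no other measured gene between them, and belong to 1 gene family. Sva and Svs1 lie apart from each other on chromosome 6 and Pate4 lies on chromosome 9. The bases before the transcription start of the 6 neighbouring genes are shown because they show which of these genes are close copies of each other. The sequences are those of RefSeq for GRCm38.p6, 250 bases up to the start, read 5′ to 3′ on the strand of the gene. Capitals mark the letters TATAAA (the core of a TATA box), TGTTCT (a half-site of steroid receptors) and GATAAG (a motif of GATA factors), each searched on both strands. These motifs were chosen after the sequences had been seen.

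Svs3a at chr2:164289017-164289266 (plus strand) and Svs3b at chr2:164256644-164256893 (minus strand) are the closest pair, and of 300 aligned bases of their promoter windows (250 before and 50 after the start) 293 are identical, or 97.7%.
Svs3a: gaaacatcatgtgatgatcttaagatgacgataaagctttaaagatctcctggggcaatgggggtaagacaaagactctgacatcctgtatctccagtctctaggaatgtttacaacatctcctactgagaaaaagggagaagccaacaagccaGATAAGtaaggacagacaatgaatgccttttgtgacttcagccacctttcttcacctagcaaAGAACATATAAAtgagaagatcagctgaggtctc
Svs3b: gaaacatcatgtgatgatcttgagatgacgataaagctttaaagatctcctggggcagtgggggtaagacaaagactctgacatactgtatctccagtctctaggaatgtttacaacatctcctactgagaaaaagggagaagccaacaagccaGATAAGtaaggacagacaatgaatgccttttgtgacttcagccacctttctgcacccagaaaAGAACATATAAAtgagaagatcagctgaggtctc

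Svs5 at chr2:164332515-164332764 (plus strand) and Svs6 at chr2:164316501-164316750 (plus strand) form the other close pair, with 285 identical bases in 304 alignment columns, or 93.8%.
Svs5: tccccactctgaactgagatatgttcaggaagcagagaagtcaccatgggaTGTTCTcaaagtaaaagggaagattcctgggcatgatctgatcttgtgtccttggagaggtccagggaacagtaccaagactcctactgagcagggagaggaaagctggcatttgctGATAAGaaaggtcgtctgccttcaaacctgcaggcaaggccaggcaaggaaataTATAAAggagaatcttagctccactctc
Svs6: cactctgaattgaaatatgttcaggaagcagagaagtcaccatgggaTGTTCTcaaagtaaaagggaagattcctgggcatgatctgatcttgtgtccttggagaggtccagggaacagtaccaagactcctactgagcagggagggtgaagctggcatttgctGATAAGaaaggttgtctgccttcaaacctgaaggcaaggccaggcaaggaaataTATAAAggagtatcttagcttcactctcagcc

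Svs4 at chr2:164278308-164278557 (minus strand) and Svs2 at chr2:164238342-164238591 (minus strand) have no such partner. Among all 28 pairs of the 8 windows found in the RefSeq table, the next was at 57.8% (Svs3a with Svs4) and the lowest at 41.1%.
Svs4: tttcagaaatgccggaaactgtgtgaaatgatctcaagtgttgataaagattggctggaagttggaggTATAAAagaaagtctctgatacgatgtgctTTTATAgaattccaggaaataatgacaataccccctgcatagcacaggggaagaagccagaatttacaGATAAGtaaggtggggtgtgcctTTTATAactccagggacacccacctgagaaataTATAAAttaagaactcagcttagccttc
Svs2: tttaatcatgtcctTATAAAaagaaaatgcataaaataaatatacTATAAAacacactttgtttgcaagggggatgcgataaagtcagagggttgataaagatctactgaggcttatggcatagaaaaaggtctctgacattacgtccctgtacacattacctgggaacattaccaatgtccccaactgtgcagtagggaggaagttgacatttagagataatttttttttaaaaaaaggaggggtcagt

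TATAAA begins 28 bases before the start in Svs3a, Svs3b, Svs4 and Svs5 and 32 bases before it in Svs6, whereas in Svs2 it is found only further upstream, at 236 and 205 bases. In Svs3a and Svs3b the half-site, read on the other strand, ends where TATAAA begins, and in Svs5 and Svs6 it begins 199 and 203 bases before the start. GATAAG begins 96 bases before the start in Svs3a and Svs3b, 86 in Svs6, 84 in Svs4 and 82 in Svs5, and is not in the Svs2 window. Over the 8 windows of 300 bases, those of Sva and Svs1 included, each of the 3 motifs was present in 6. Among all 27025 RefSeq promoter windows of that length 14.2% hold TATAAA, 19.0% hold TGTTCT and 7.43% hold GATAAG. The windows of a gene family are not independent of each other, and a match of letters is a description of the sequence, not a measured binding site.

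All 10 genes lay below the background on the WT_A12 array and above it on the KO_A12 array. The array holds 23 background control probe sets, with a median of 5.75 and a highest value of 7.14 in WT_A12, and of 5.61 and 7.21 in KO_A12. The signals of the 10 genes ran from 3.32 to 5.33 in WT_A12, all under the median of the controls, where 43.1% of all probe sets also lay. The lowest control in WT_A12 was at 2.88, so these signals lay within the range of the controls. In KO_A12 they ran from 8.38 to 12.96, all over the highest control. Of the 10 genes, 10 had a log2 difference, KO_A12 minus WT_A12, over 1 with a KO_A12 signal over 7, which are the study's cutoffs, called the cutoffs for higher below. Of all 22206 probe sets 126 met them, or 0.567%, and since the genes were chosen on this same comparison the count carries no evidence of its own. Their median log2 difference was 5.13, beside 0.00 over all probe sets, of which 95% lay between -0.84 and 0.86. With both arrays floored at the median of their controls the median of the 10 genes was 3.56, and at the 95th percentile 2.37. A WT_A12 signal within the range of the background controls is only an upper bound. Folds are therefore given as "at least" values, from the KO_A12 signal over the 95th percentile of the controls on the WT_A12 array. That percentile is a log2 signal of 6.95.

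**Figure D1:**
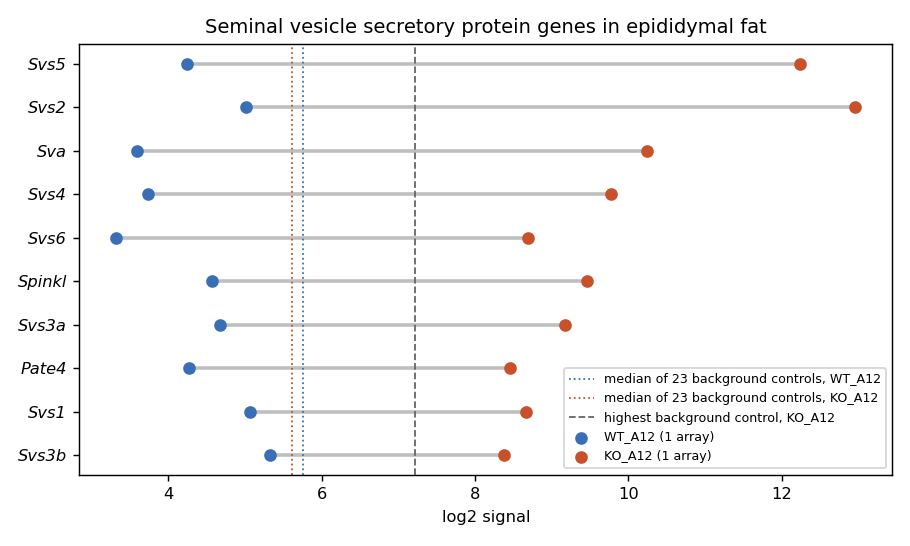
The log2 signals of the 10 genes on the WT_A12 array (blue points) and the KO_A12 array (red points), 1 array of a pool of 3 mice each, in order of the difference. The dotted lines are the medians of the 23 background controls on each array (5.75 and 5.61) and the dashed line is the highest control on the KO_A12 array (7.21). Every blue point lies below both dotted lines and every red point above the dashed line.

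Svs2 and Svs5 had the largest differences of the group. Svs2, the semenogelin-like protein that covers sperm and is a main substrate of the cross-link, had a log2 signal of 5.01 in WT_A12 and 12.96 in KO_A12. Its difference was 7.96, at least 64.6-fold. Svs5, its neighbour at the other end of the chromosome 2 group, had signals of 4.25 and 12.25, a difference of 7.999 and at least 39.3-fold. These held places 2 and 3 among all 22206 differences, behind a probe set with no gene symbol.

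Svs4, a small secretory protein, had a log2 signal of 3.73 in WT_A12 and 9.78 in KO_A12, a difference of 6.05 and at least 7.09-fold. Svs6, the close partner of Svs5 in the sequences shown above, had signals of 3.32 and 8.68, a difference of 5.36 and at least 3.33-fold. Svs3a, a further plug protein, had signals of 4.67 and 9.18, a difference of 4.51 and at least 4.68-fold. Svs3b had 5.33 and 8.38, a difference of 3.06 and at least 2.70-fold, the smallest of the 10. The windows of Svs3a and Svs3b include the first 50 bases of the transcripts, and the probe sequences were not analysed here, so signal shared between the probe sets of these close copies was not tested.

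Svs1, which is related in sequence to copper-containing amine oxidases, had a log2 signal of 5.07 in WT_A12 and 8.66 in KO_A12. Its difference was 3.60, at least 3.28-fold. Of its 4 measured relatives in the amine oxidase list, 8 genes as written, none met the cutoffs for higher. Aoc3, the vascular adhesion protein that adipocytes and vessels express, had signals of 15.83 and 15.85, a difference of 0.02. Aoc1, the diamine oxidase gene close to Svs1, had 3.71 and 4.87, a difference of 1.16 with both signals under the median of the controls.

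The small proteins that act on sperm lay between these values. Sva, the seminal vesicle autoantigen, an inhibitor of sperm motility, had a log2 signal of 3.60 in WT_A12 and 10.24 in KO_A12. Its difference was 6.65, at least 9.82-fold, the largest outside chromosome 2. Spinkl, a protein with a Kazal-like domain, had signals of 4.56 and 9.46, a difference of 4.89 and at least 5.68-fold. Pate4, also called Svs7, a member of the PATE family with the fold of Ly-6 proteins, had 4.26 and 8.45, a difference of 4.19 and at least 2.84-fold. The 4 genes outside chromosome 2 had a median difference of 4.54. All 4 met the cutoffs for higher, which 0.567% of all probe sets met, but they too were chosen on this same comparison.

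In the order of all 22206 differences the 10 genes held places between 2 and 40. Svs5 and Svs2 were among the first 10, 5 of the genes were among the first 20 and all 10 among the first 50. The group held 4 of the 15 probe sets with a difference over 6 and 8 of the 28 with a difference over 4. These places rest on WT_A12 signals within the range of the background controls. By the bound used for the folds, 1 of the 10 genes (Svs2) exceeded 6 and 2 (Svs2 and Svs5) exceeded 4. The remaining 30 probe sets with a difference over that of Svs3b were 12 liver plasma proteins, 6 major urinary proteins, Pate14, the kidney gene Kap, 3 genes of no list (9530003J23Rik, Hpd and Saa4) and 7 without a symbol. Lowest among the 10 stood Svs3b at 3.06 and Svs1 at 3.60 (by the bound, Svs3b at 2.70-fold and Pate4 at 2.84-fold). Of other genes known from the seminal vesicle, Pate14, listed with its family, was at 5.25. The highest in the list of other seminal vesicle genes were Ceacam10 at 1.52 and Spink1 at 1.11. In the other direction 8 probe sets had a difference under -2, and the lowest was -3.22.

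**Figure D2:**
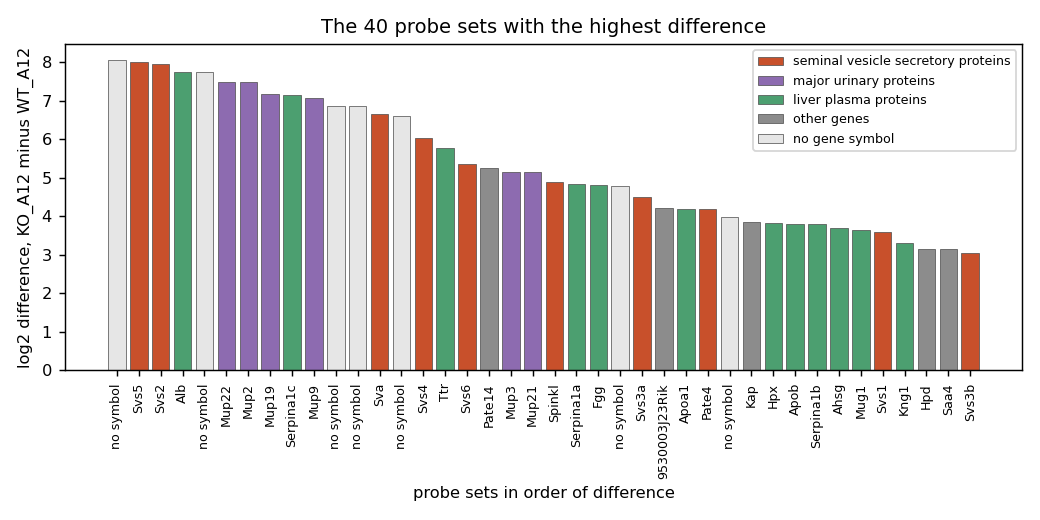
The log2 difference, KO_A12 minus WT_A12 (y axis), of the 40 probe sets with the highest values, in order (x axis), 1 array per genotype. Red bars are the seminal vesicle secretory protein genes, purple the major urinary proteins, green the liver plasma proteins, dark grey other genes and light grey probe sets with no symbol. Red bars stand from place 2 (7.999) to place 40 (3.06), mixed with purple and green bars.

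**Figure D3:**
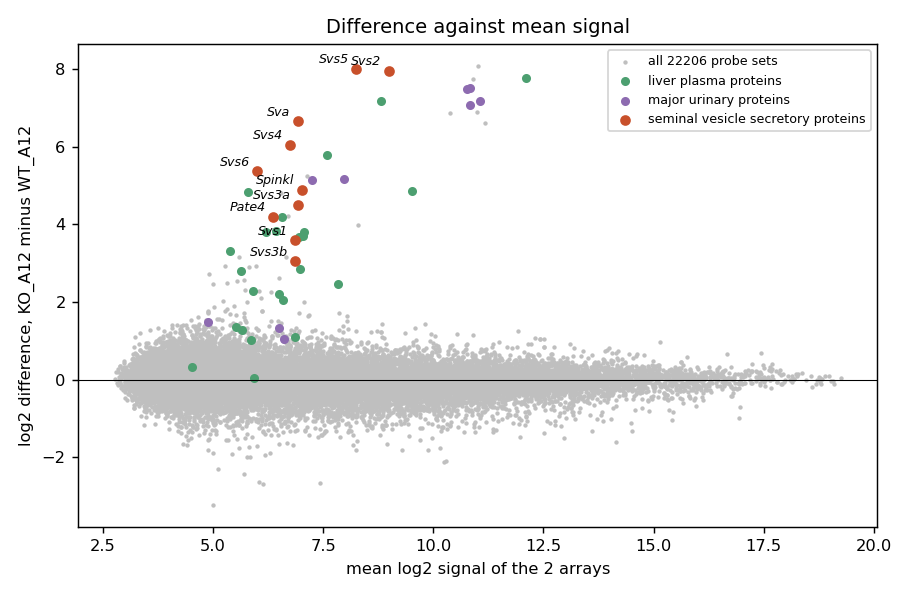
The log2 difference, KO_A12 minus WT_A12 (y axis), against the mean log2 signal of the 2 arrays (x axis) for all 22206 probe sets (grey), with the seminal vesicle secretory protein genes in red and named, the liver plasma proteins in green and the major urinary proteins in purple. The red points lie at differences of 3.06 to 7.999, while 95% of all probe sets lie between -0.84 and 0.86, and grey points spread more widely at low signal.

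Genes with the same pattern were sought by the distance of their 2 signals from the median signals of the 10 genes, 4.41 in WT_A12 and 9.32 in KO_A12. The nearest of all named probe sets was Pate14, a Ly-6-like secreted protein of the PATE family that RefSeq also lists as Sslp1. Pate14 had a log2 signal of 4.50 in WT_A12 and 9.75 in KO_A12, a difference of 5.25 at a distance of 0.44. The second was 9530003J23Rik, with the RefSeq synonym Lyzf1, at signals of 4.61 and 8.82 and a distance of 0.53. The next 8 were Mup21, Apoa1, Apob, Ahsg, Mug1, Kap, Hpx and Ttr, at distances of 0.55 to 1.19, of which 6 encode plasma proteins made by the liver. With 2 arrays, likeness rests on 2 values per gene and holds for any transcript that was low in one pool and present in the other.

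The neighbours of the 10 genes in the genome had differences near those of all probe sets. For each group of neighbouring members, the 10 measured genes on each side were taken in the order of GRCm38.p6, 100 genes in all. Of these 51 had a difference above 0, beside 50% of all probe sets, 1 met the cutoffs for higher and 1 those for lower, and their median was 0.02. Around Svs2 to Svs5 the 20 neighbours ran from -0.58 (Dbndd2) to 0.42 (Wfdc2), with none past a cutoff. Wfdc15b, directly before Svs2, was at -0.02, with log2 signals of 4.21 in WT_A12 and 4.19 in KO_A12. Matn4, directly after Svs5, was at 0.31, with 4.56 and 4.86. Both genes lay under the median of the controls on each array. Most of the 100 neighbours had signals under 7 on both arrays, where a difference near 0 does not separate an unchanged gene from an undetected one. Around Sva, its relative Pip, the gene of prolactin-induced protein, had the lowest difference at -0.92 and Olfr459, an olfactory receptor gene, the highest at 0.67. Around Pate4, Cdon had the lowest at -0.93 and Pate5 the highest at 0.69. Around Svs1, Aoc1 was at 1.16 and Gpnmb, a glycoprotein of macrophages, was at -1.60 and past the cutoffs for lower, which 0.757% of all probe sets met. Around Spinkl, Trim36 was at -1.02, and Spink1 met the cutoffs for higher at 1.11.

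**Figure D4:**
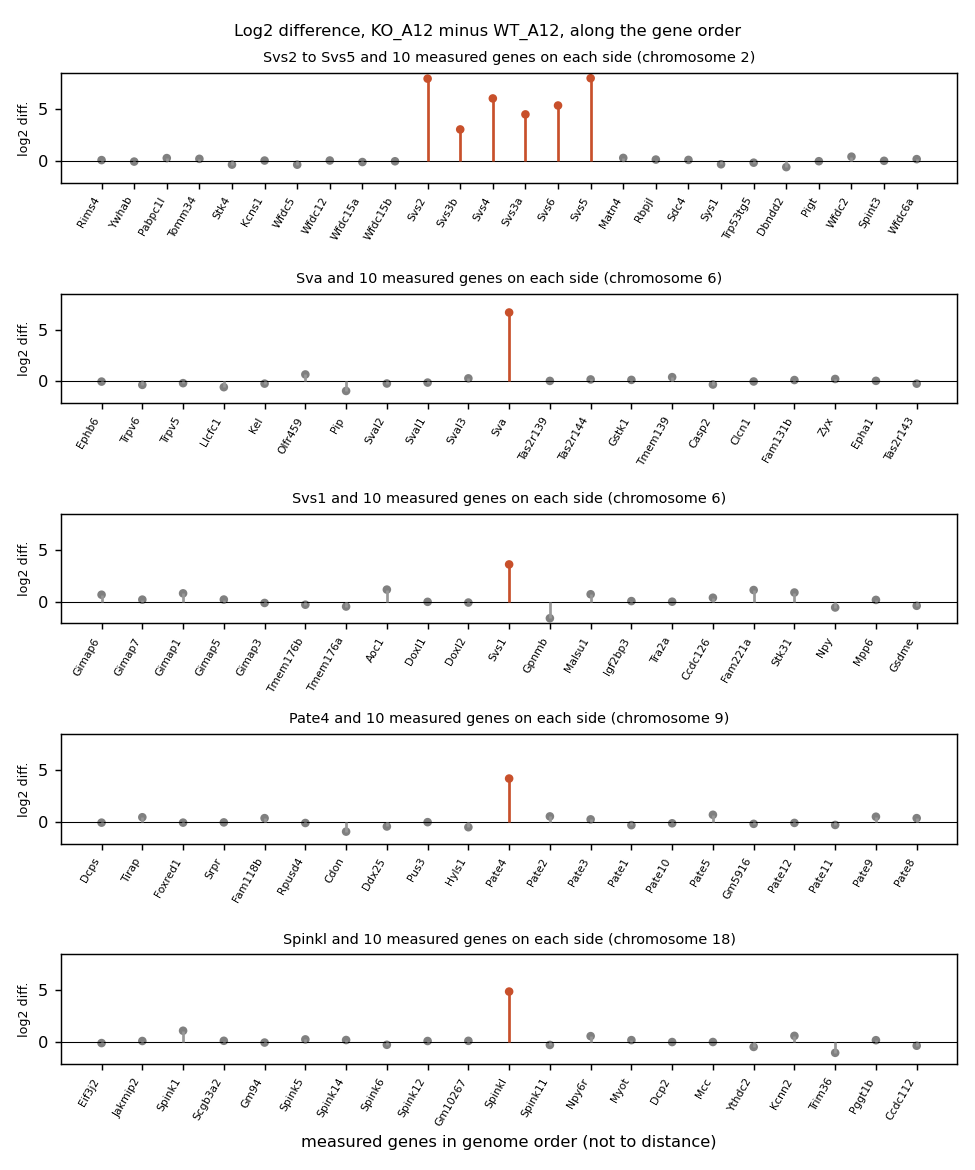
The log2 difference, KO_A12 minus WT_A12 (y axis), along the order of measured genes (x axis, not to distance) in 5 panels, 1 for each group of neighbouring members with 10 measured genes on each side. Red points are the seminal vesicle secretory protein genes and grey points their neighbours. The 6 genes from Svs2 to Svs5 stand side by side between 3.06 and 7.999, while the 100 grey points stay between -1.60 and 1.16. Most grey points are genes with log2 signals under 7 on both arrays.

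The relatives of the 10 genes in their families had medians near 0. Most of their signals, however, lay below the 95th percentile of the background controls on each array. In WT_A12, 2 Wfdc genes exceeded it and no PATE, Spink, Pip or Sva-like gene did. In KO_A12, 1 PATE, 2 Spink and 2 Wfdc genes exceeded it and no Pip or Sva-like gene did. Of the PATE family 12 of 22 listed genes were measured, beside Pate4, and 6 were above 0 and 6 below, with a median difference of 0.08. Pate14 met the cutoffs for higher and no other of the 12 did. The Spink family of Kazal-type protease inhibitors had all 12 genes measured, 6 above 0, and a median of -0.01. Spink1, a trypsin inhibitor made by the pancreas and by the seminal vesicle, had signals of 6.11 and 7.22 and was its single gene past the cutoffs. The Wfdc family are small protease inhibitors, some of which lie beside the Svs genes on chromosome 2. Of its genes 19 of 20 were measured, 12 were above 0, none met the cutoffs and the median was 0.14. Wfdc17 and Wfdc21, which lie on another chromosome and had signals over 7 on both arrays, were at 0.79 and 0.65. Pip and the 3 Sva-like genes had a median of -0.16, with 1 of 4 above 0 and none past a cutoff.

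Further genes known from the seminal vesicle were listed beside Pate14, which is given with its family above. Of 8 listed, 5 were measured, and all 5 were above 0 with a median difference of 0.26, a value that leaves out Pate14 at 5.25. Ceacam10, a secreted glycoprotein of the seminal vesicle, had signals of 4.97 in WT_A12 and 6.49 in KO_A12, a difference of 1.52 under the signal cutoff of 7. Spink1 was the only 1 of the 5 past the cutoffs. The developmental factors Hoxa13, Hoxd13 and Pax2 were at 0.08, 0.26 and 0.04, each under the signal cutoff on both arrays. Of 8 transglutaminases, the enzymes that cross-link Svs proteins, 5 were above 0 and none met a cutoff, with a median of 0.09. Tgm4, the enzyme of the plug, had signals of 5.16 and 5.56, both under the median of the controls. The list of prostate and coagulating gland genes had 7 of 8 measured, 6 above 0, a median of 0.29 and no signal over 7 on either array, and its KO_A12 signals ran up to 5.56.

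The other organs of the surroundings gave the following values, and their part in the signals of the 10 genes was not tested. Of 19 epididymis genes 15 were measured, 8 were above 0, the median was 0.14 and 1 met the cutoffs for higher. This was Gpx5, the secreted glutathione peroxidase of the caput epididymidis, with 4.53 in WT_A12 and 7.44 in KO_A12. All 16 epithelial genes were measured, 12 were above 0 and none met a cutoff, with a median of 0.30 and KO_A12 signals from 3.44 to 7.42. Krt7 was at 6.87 and 7.42, the keratins Krt8 and Krt18 had differences of 0.84 and 0.72, and the adhesion proteins Epcam and Cdh1 differences of -0.03 and 0.05. Of the 16, 1 exceeded the 95th percentile of the controls on the KO_A12 array and none on the WT_A12 array. Testis germ cell genes went the other way, with 15 of 18 below 0, a median of -0.75 and 2 past the cutoffs for lower. Prm2, a protamine of sperm nuclei, was at 8.76 in WT_A12 and 6.09 in KO_A12, and Smcp, a sperm mitochondrial protein, at 7.25 and 5.36, while Sycp3, of the meiotic chromosome axis, was at 12.63 and 13.55. With both arrays floored at the median of their controls, the medians of the epididymis, epithelium and testis lists were -0.14, the difference of the 2 floors. The same value was found for every other list except the major urinary proteins, the liver plasma proteins and the white adipocyte genes.

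Secreted proteins of the liver and the kidney gene Kap had higher signals in the same pool as the 10 genes. All 9 measured major urinary proteins, pheromone carriers made by the liver, of 22 listed, were above 0 and 8 met the cutoffs for higher, with a median of 5.16. Their KO_A12 signals ran from 5.64 to 14.65. In WT_A12, 4 of them lay over the 95th percentile of the controls, where no seminal vesicle gene of the 10 was. Among these Mup2, Mup19 and Mup22 were at 7.02, 7.48 and 7.08, and of the 3 only Mup19 was over the highest control, 7.14. The Mup genes are near-identical copies, so their probe sets may share signal. The paper also measured Mup1 by real-time qPCR in epididymal fat and reports that the change on the array was not borne out. None of the 10 genes is among those the paper names for qPCR. Of 25 plasma proteins of the liver 24 were measured, 24 were above 0 and 19 met the cutoffs, with a median of 3.07. Alb, serum albumin, was at 8.22 and 15.99, and Ttr, transthyretin, at 4.69 and 10.47. Of 11 kidney genes 10 were measured, 7 were above 0 and 1 met the cutoffs, with a median of 0.48. This was Kap, the androgen-regulated protein of the proximal tubule, at 4.51 and 8.36.

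Markers of the labelled tissue were present on both arrays. Of 12 white adipocyte genes 10 were measured, with log2 signals from 9.46 to 19.10 in WT_A12 and differences from -0.10 to 0.34, none past a cutoff. Over all probe sets the median was 6.50 in WT_A12 and 6.51 in KO_A12. Iah1 itself, the targeted gene, had a signal of 9.52 in WT_A12 and 8.35 in KO_A12, a difference of -1.17, and its KO_A12 signal lay above the highest background control of 7.21. Where its probes lie relative to the deletion is not known here, so the value is no check of protein loss. By real-time qPCR and western blot, the paper found neither Iah1 mRNA nor IAH1 protein in KO_A12 mice.

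**Figure D5:**
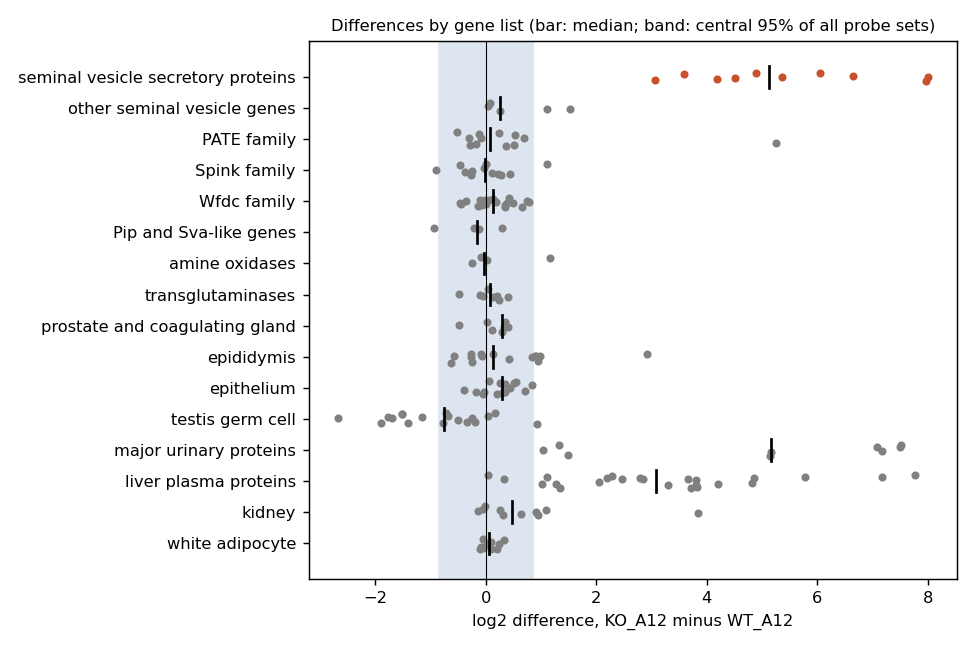
The log2 difference, KO_A12 minus WT_A12 (x axis), of each measured gene (points) in the seminal vesicle secretory proteins (red) and the 15 other gene lists (grey), with the median of each list as a black bar and the range of 95% of all probe sets as a band. The red points lie from 3.06 to 7.999, the lists of the other seminal vesicle genes, prostate, epididymis and epithelium have medians of 0.14 to 0.30, and those of the major urinary and liver plasma proteins have medians of 5.16 and 3.07. Pate14, also known from the seminal vesicle, is the point at 5.25 in the PATE family list.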

How the data were processed

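The authors pooled RNA of 3 mice per genotype, hybridized 1 Clariom S Mouse Array per pool and normalized the raw data by STT-RMA, as the methods spell it, in the GeneChip Console Software. The deposited values are log2 signals and were used as they stand. The genome build behind them is not given in the sources used here. Of 28846 rows, 6640 control rows were left out, and 22206 probe sets remained. The platform annotation gives 1 symbol to 19572 of these, several to 0 and none to 2634, and 19572 were found in RefSeq by Entrez ID. Every value column was mapped to a sample. Precision is limited by the number of arrays, and with 1 array per genotype no test was made.

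A gene with several probe sets entered a list by the one of highest mean signal. The members and all lists were chosen with earlier results of these data known. The text names all members, Iah1, up to 3 genes per list that had a signal over 7 in either pool, by the size of their difference, the 10 genes nearest to the median member and up to 3 neighbours per group. Ceacam10, Hoxa13, Hoxd13, Pax2, Tgm4, Aoc1, Krt8, Krt18, Epcam, Cdh1, the adjoining genes Wfdc15b and Matn4, and Hpd and Saa4 were named after their values were seen. Promoters of 8 members came from RefSeq (GRCm38.p6) and were aligned globally with Biopython 1.88. Alternatives were median centring, quantile normalization, a lowess trend (span 0.3), floors at the background controls, other cutoffs, the mean over the probe sets of a gene and fewer members. A gene of 1 list is not reported here. The computation was tested on simulated data. The scripts ran in Python 3.11.15 (pandas 2.3.3, numpy 2.4.6, statsmodels 0.14.6, scipy 1.17.1, matplotlib 3.10.9).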

Additional observations from a re-analysis of the deposited data

How the results depend on the processing

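The 19 values were recomputed under the alternatives that apply to each, 109 recomputed values in all. Of these 88 moved by less than 0.35 on the log2 scale (the robust SD of all differences) or, for a count, stayed within 1.5 times the first value, and 21 moved further. Under the 3 scalings none of the 57 values moved further: the median difference of the 10 genes ran from 5.12 to 5.14, the smallest from 3.05 to 3.07 and the number of probe sets called higher from 126 to 138. With both arrays floored at the median of the background controls, the median of the 10 genes was 3.56 and the smallest 2.63, and at the 95th percentile they were 2.37 and 1.43, since all 10 WT_A12 signals were raised to the floor. Without Svs3b the smallest difference was 3.60. Without the chromosome 2 genes the median was 4.54, the smallest 3.60 and the count called higher 4, all that were left. A signal over 7 on both arrays left 0 of the 10 genes and 48 probe sets. All 10 genes were called under the other cutoffs, where 82 probe sets passed at a signal over 8, 325 with no signal cutoff, 487 at 1.5-fold and 58 at 3-fold. With the floor at the median of the controls, the list medians were 2.40 for plasma proteins of the liver, 4.80 for the major urinary proteins, 0.06 for white adipocyte genes and -0.14 for every other list. The value of -0.14 is the difference of the 2 floors, 5.61 and 5.75. No paired analysis was possible because there was 1 array per genotype, and no array could be left out. Signals within the range of the background controls bound the WT_A12 levels from above only.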

Other observations

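9530003J23Rik, the gene second nearest to the 10 genes in its signals, is named after a RIKEN clone, and 5 of the 10 (Spinkl, Svs3a, Pate4, Svs1 and Svs3b) have in RefSeq a synonym from the same clone series, with the same leading digits. This was noticed after the values had been seen. Of all measured genes 97 have such a name. Among the 92 that are not members, 9530003J23Rik was the only 1 that met the cutoffs for higher, which 0.567% of all probe sets met. None of the 92 met those for lower, which 0.757% of all probe sets met. Of the 92, 40 had a difference above 0, beside 50% of all probe sets, and the median log2 difference was -0.10.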
